A study of Homo sapiens with 40 samples.

Results

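The ZBTB mRNAs are the transcripts of the genes whose symbol is ZBTB followed by a number and at most 1 letter. Of 55765 gene symbols in the count data, 41 met this naming rule. The family was taken up because ZBTB42 stood high in the eIF4A1 immunoprecipitate, where its log2 ratio to total RNA ranked 18 of 17474 tested genes and was the highest of the family. That value therefore describes the choice and is given without a test. All 40 libraries came from HEK293, an established human embryonic kidney cell line, and fell into 12 groups. RNA immunoprecipitation (RIP-Seq) gave RNA bound to the endogenous helicases eIF4A1, eIF4A2 or DDX6 and the total RNA of the same lysates, from cells without siRNA (3 libraries in each of 4 groups). Sucrose gradients of cells with either control or CNOT1 siRNA gave input, subpolysomal (fractions 1 to 5) and polysomal (fractions 6 to 11) RNA (4 libraries in each of 6 groups). Knockdown of TNRC6A together with TNRC6B was compared with control siRNA in total RNA (2 libraries in each of 2 groups).

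ZBTB proteins carry an N-terminal BTB domain, through which they pair and recruit corepressors such as BCOR, and C-terminal C2H2 zinc fingers that read DNA. Most of those studied are transcriptional repressors, and they are best known for fate decisions of lymphoid, myeloid and neural cells. eIF4A1 is the helicase of the cap-binding initiation complex, eIF4A2 is its close paralogue, and DDX6 is a helicase of translational repression and decapping. CNOT1 is the scaffold of the Ccr4-Not deadenylase, and the TNRC6 proteins connect Argonaute to it.

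Levels are counts per 1000000 counts of the library (CPM) with TMM scaling, and library totals were 15.4 to 46.0 M counts. The cell line expressed VIM (104.9 to 676 CPM), CDH2 (16.1 to 90.7 CPM), NEFM and LIN28B, whereas PAX2 was low (0.0984 to 1.57 CPM) and the leukocyte markers PTPRC and CD3E were at or near 0 (at most 0.0775 CPM). CNOT1 itself was measured at 628 to 711 CPM in control siRNA input and at 36.8 to 41.4 CPM in CNOT1 siRNA input. A pair of polysomal libraries went against their labels. CNOT1 was at 28.3 CPM in the one labelled control siRNA polysomal replicate 3, against 470 to 501 CPM in the rest of that group. It was at 631 CPM in the one labelled CNOT1 siRNA polysomal replicate 3, against 24.01 to 31.6 CPM in the rest. The counts of called members in the gradient, and the values of its named members where polysomal libraries enter, are therefore given with all libraries and without these 2. TNRC6A was at 178 and 189 CPM with control siRNA and 40.5 and 64.7 with the siRNAs, and TNRC6B at 67.6 and 73.1 against 17.7 and 26.3.

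ZBTB42 was one of the scarcer family members in total RNA and one of the most concentrated in the immunoprecipitates (IPs). The protein is the closest relative of ZBTB18 (also RP58), a repressor of neuronal differentiation genes. ZBTB42 lies at chr14:105266933-105271049 on the + strand (GRCh37) and overlaps no exon of another gene. Its 12 RIP-Seq values were 3.89, 4.89 and 2.30 CPM in total RNA, 28.6, 22.1 and 16.6 CPM in the eIF4A1 IP, 36.1, 29.8 and 36.9 CPM in the eIF4A2 IP, and 12.3, 13.97 and 12.3 CPM in the DDX6 IP. Every IP library was above every total RNA library, and the eIF4A2 IP libraries were above all others. The log2 fold changes against total RNA were 2.59 ± 0.25 (SE) for eIF4A1, 3.20 ± 0.26 for eIF4A2 and 1.79 ± 0.25 for DDX6. These 3 comparisons share the total RNA libraries that took part in choosing ZBTB42, so its values in them are descriptive. As the libraries are bulk samples, fewer cells carrying an mRNA and less of it per cell cannot be told apart.

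ZBTB18, at chr1:244211849-244220778 (+ strand), followed ZBTB42 in all 3 IPs at a higher level. Its values were 51.8, 59.9 and 56.2 CPM in total RNA, 153, 155 and 149 CPM with eIF4A1, 186, 212 and 202 CPM with eIF4A2, and 113, 122 and 123 CPM with DDX6. The 4 groups did not overlap. Enrichment over total RNA in log2 was 1.45 ± 0.12 for eIF4A1 (edgeR FDR 1.63e-06), 1.84 ± 0.12 for eIF4A2 (FDR 4.25e-07) and 1.09 ± 0.12 for DDX6 (FDR 2.16e-05).

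**Figure D1:**
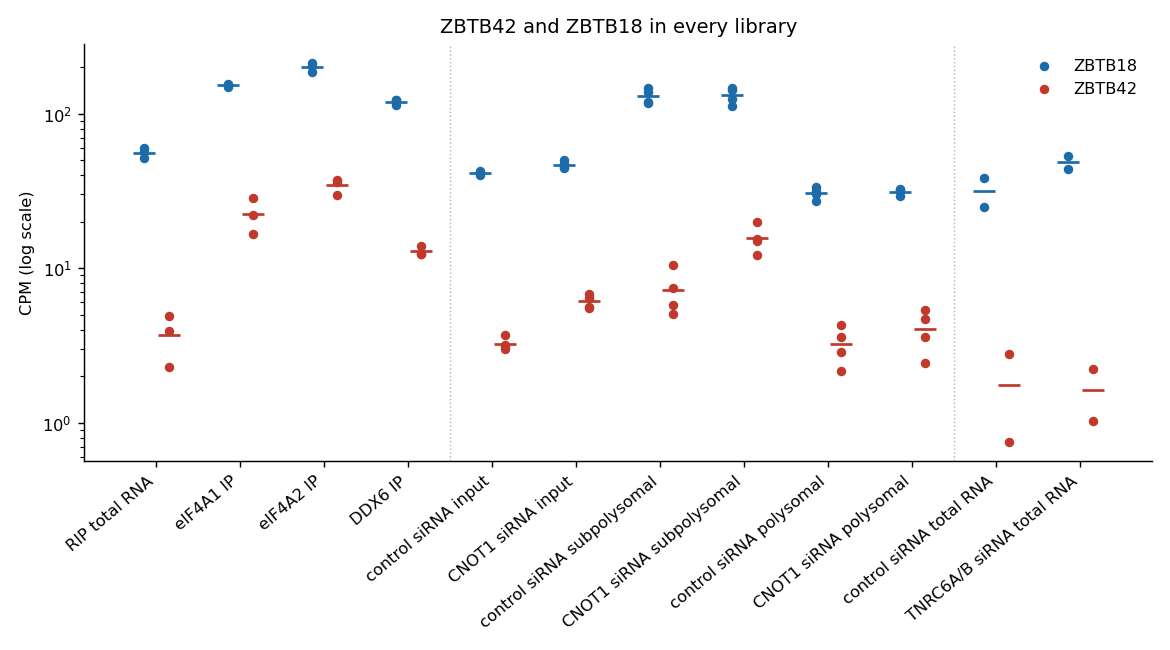
CPM of ZBTB42 (red) and ZBTB18 (blue) on a log axis in all 40 libraries of the 12 groups, where points are libraries, short bars are group means and dotted lines part the 3 experiments. ZBTB42 goes from 2.30 to 4.89 CPM in RIP total RNA to 29.8 to 36.9 CPM in the eIF4A2 IP, and ZBTB18 from 51.8 to 59.9 to 186 to 212 CPM.

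The family as a whole did not follow this pair: in each IP some members were enriched and others depleted. Of the 41 members, 40 passed the filter on low counts in the RIP-Seq fit. ZBTB32, a gene of activated lymphocytes, did not: it had 8 reads in all 40 libraries together. A member was called at an FDR below 0.05 over all genes tested. In the eIF4A1 IP 13 members were called higher and 10 lower, where 26.1% of all genes were called higher and 26.5% lower. ZBTB42 is 1 of those 13, and as the family was chosen on this comparison, nothing is read from its counts. In the eIF4A2 IP 15 were higher and 7 lower, against a background of 24.5% and 25.8%, and in the DDX6 IP 10 were higher and 10 lower, against 22.7% and 23.3%. With the replicate number as a block, no call was lost and the counts higher and lower were 15 and 12 with eIF4A1 (32.4% and 32% of all genes), 17 and 10 with eIF4A2 (30.4% and 31.9%) and 11 and 14 with DDX6 (29.6% and 30.4%). The members' median log2 fold change was 0.11 for eIF4A1 (0.04 over all genes), 0.14 for eIF4A2 (0.01) and -0.02 for DDX6 (0.01). As the 3 comparisons share their total RNA libraries, errors in those libraries enter all of them. No member was called in opposite directions without the block. With it ZBTB40 was, being higher with eIF4A2 (0.38 ± 0.13, FDR 0.018) and lower with DDX6 (-0.54 ± 0.13, FDR 0.00241). The 9 members called higher in all 3 were ZBTB2, ZBTB7B, ZBTB18, ZBTB22, ZBTB34, ZBTB39, ZBTB42, ZBTB44 and ZBTB46, and the 6 called lower in all 3 were ZBTB3, ZBTB8B, ZBTB11, ZBTB21, ZBTB33 and ZBTB37. Over all genes 15.9% were higher in all 3 and 16.9% lower.

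Among the enriched members, ZBTB22 came closest to ZBTB42. It had 10.2, 11.2 and 8.15 CPM in total RNA, 39.9, 35.5 and 31.9 CPM with eIF4A1, 41.1, 37.7 and 48.2 CPM with eIF4A2, and 23.0, 25.5 and 24.6 CPM with DDX6. Its log2 enrichment was 1.86 ± 0.15 (FDR 1.7e-06), 2.10 ± 0.15 (FDR 6.39e-07) and 1.30 ± 0.15 (FDR 3.56e-05) in that order, and all IP libraries were above all total RNA libraries. ZBTB2, a repressor of the cell cycle inhibitor gene CDKN1A, rose from 57.3, 66.5 and 50.8 CPM to 146, 197 and 156 CPM with eIF4A1 and to 110, 156 and 124 CPM with DDX6, without overlap. The log2 changes were 1.51 ± 0.20 (FDR 3.77e-05) and 1.16 ± 0.19 (FDR 0.000402). ZBTB34 reached 150, 152 and 175 CPM with eIF4A2 from 44.8, 49.3 and 51.6 CPM in total RNA, a log2 rise of 1.71 ± 0.14 (FDR 1.05e-06).

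At the other end, ZBTB8B had 4.53, 4.50 and 6.71 CPM in total RNA, 2.39, 1.61 and 2.38 CPM with eIF4A1, 2.15, 2.12 and 2.38 CPM with eIF4A2, and 1.90, 1.51 and 2.47 CPM with DDX6. Every IP library was below every total RNA library, and the log2 changes were -1.30 ± 0.23 (FDR 0.000437), -1.23 ± 0.23 (FDR 0.000685) and -1.41 ± 0.23 (FDR 0.00037). ZBTB37 went from 49.7, 50.5 and 85.4 CPM to 37.7, 18.5 and 33.2 CPM with eIF4A1, 39.0, 24.3 and 34.0 CPM with eIF4A2 and 24.1, 14.8 and 26.2 CPM with DDX6. Its log2 changes were -1.05 ± 0.30 (FDR 0.00973), -0.93 ± 0.30 (FDR 0.0192) and -1.51 ± 0.30 (FDR 0.00137). Total RNA replicate 3 stood above the others, and without it the changes with eIF4A1 and eIF4A2 were -0.75 and -0.63 and were no longer called; without eIF4A2 IP replicate 2 the latter was -0.76 and not called. ZBTB21 fell in all 3 IPs, by 0.86 with eIF4A1 on the log2 scale (FDR 0.000558), by 0.74 with eIF4A2 (FDR 0.0017) and by 0.87 with DDX6 (FDR 0.000764). ZBTB3 fell by 0.69 ± 0.16 with eIF4A2 (FDR 0.0033) and by 0.80 ± 0.16 with DDX6 (FDR 0.00149). ZBTB10, a binder of variant telomere repeats, fell by 0.67 ± 0.18 with eIF4A1 (FDR 0.00642). Of the members named here and below for the IPs, ZBTB1, ZBTB7B, ZBTB7C, ZBTB8B, ZBTB10, ZBTB11, ZBTB12, ZBTB14, ZBTB21, ZBTB24, ZBTB38, ZBTB46 and ZBTB47 share exon sequence with another annotated gene. They are uncertain to that extent. ZBTB2, ZBTB3, ZBTB18, ZBTB22, ZBTB34, ZBTB37 and ZBTB42 do not share any.

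**Figure D2:**
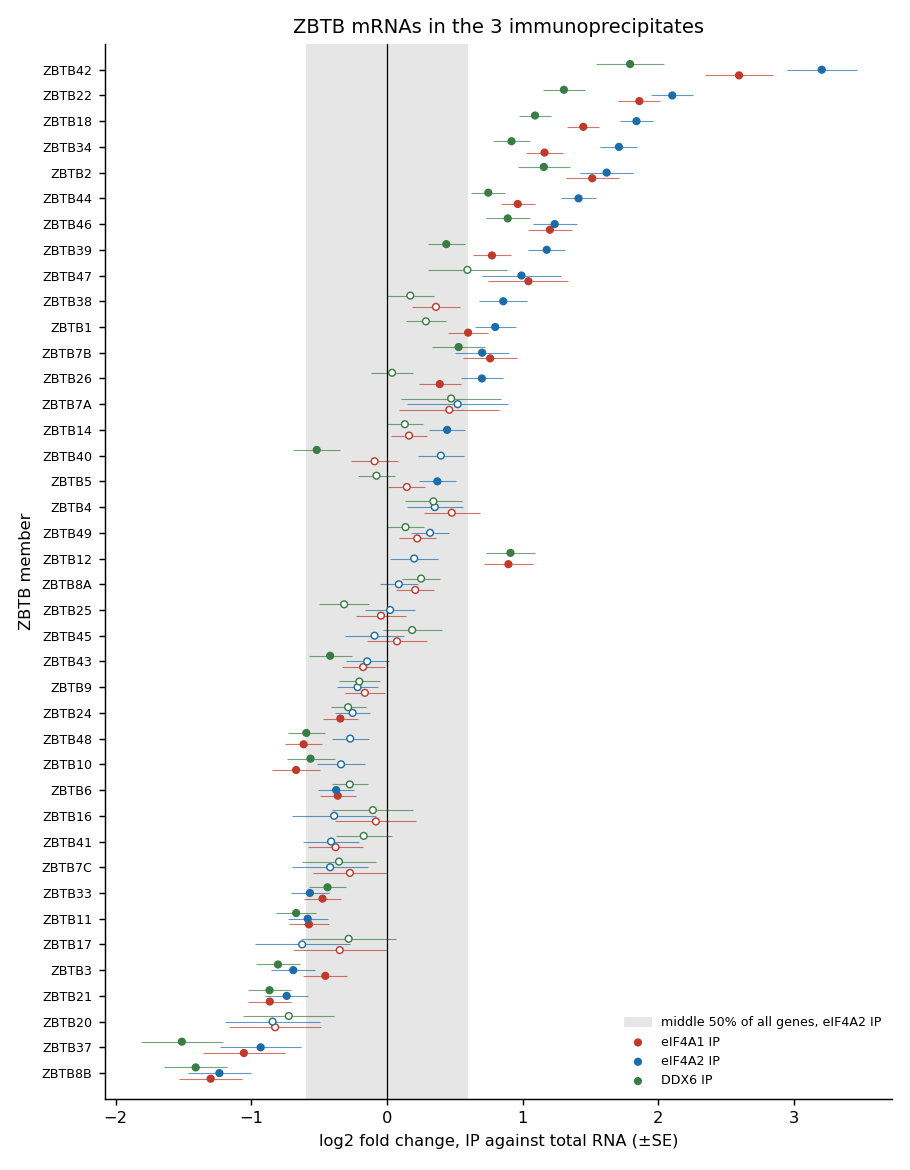
Log2 fold change of each of the 40 tested ZBTB members in the eIF4A1 (red), eIF4A2 (blue) and DDX6 (green) IP against the same total RNA libraries, with bars of 1 SE, filled points for an FDR below 0.05, and a grey band for the middle 50% of all genes in the eIF4A2 IP. ZBTB42, ZBTB22 and ZBTB18 lie furthest right (3.20, 2.10 and 1.84 with eIF4A2) and ZBTB8B and ZBTB37 furthest left (-1.23 and -0.93).

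The groups of members by role held few calls each, and their directions differed between groups. Of the methyl-CpG binding proteins ZBTB4, ZBTB33 (Kaiso) and ZBTB38, ZBTB33 was called lower in all 3 IPs and ZBTB38 higher with eIF4A2, at 0.86 in log2. In the ZBTB7 subfamily, ZBTB7B (ThPOK, which sets the CD4 T cell fate) was called higher in all 3, while ZBTB7A (LRF, a repressor of fetal globin) and ZBTB7C were called in none. Of 6 tested lymphoid and myeloid regulators, 2 were called higher with eIF4A2 (ZBTB1 and ZBTB46) and none lower. With eIF4A1 the same 2 were higher and ZBTB24 was lower, and with DDX6 only ZBTB46 was called, as higher. Of ZBTB2, ZBTB5 and ZBTB17 (MIZ1, the partner of MYC), the former 2 were called higher with eIF4A2, and ZBTB2 alone with eIF4A1 and DDX6. The telomere repeat binders ZBTB10 and ZBTB48 were both called lower with eIF4A1 and DDX6. Among 8 BTB zinc finger genes with other names, 4 (HIC1, HIC2, PATZ1 and ZNF131) were called higher and none lower with eIF4A2, and BCL6 was not called. The same 4 were higher with eIF4A1, only HIC1 and ZNF131 were higher with DDX6, and none was lower in either. Over all genes 24.5% were called higher and 25.8% lower with eIF4A2. With eIF4A1 26.1% were called higher and 26.5% lower, and with DDX6 22.7% and 23.3%. In groups this small the counts cannot be told from those shares.

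Some members differed between the eIF4A2 and DDX6 IPs, most of them being higher with eIF4A2. In this comparison, which shares no library with the choice of ZBTB42, 11 members were called higher with eIF4A2 and 1 lower, where 9.82% of all genes were higher and 11.3% lower; the members' median difference was 0.20 in log2 and that of all genes -0.01. With the replicate block 16 were higher and 1 lower (18.5% and 22% of all genes). Of the 15 members enriched with eIF4A2 over total RNA, ZBTB2, ZBTB7B, ZBTB14, ZBTB46 and ZBTB47 were not called here without the block. ZBTB42 was higher by 1.41 ± 0.24 (FDR 0.00293), the largest difference in the family, and ZBTB18 by 0.75 ± 0.12 (FDR 0.00238). ZBTB40 had 129, 103 and 126 CPM with eIF4A2 against 72.7, 51.1 and 65.8 CPM with DDX6, a difference of 0.91 ± 0.17 without overlap (FDR 0.00457). ZBTB22 differed by 0.80 ± 0.15 (FDR 0.00425) and ZBTB34 by 0.79 ± 0.13 (FDR 0.00305). ZBTB12 went the other way, with 18.4, 22.8 and 17.6 CPM against 33.4, 32.9 and 29.7 CPM (-0.71 ± 0.18, FDR 0.0155). Its exons overlap those of C2 on the other strand, and the strand setting of the counting was not given. The call of ZBTB12 was lost without eIF4A2 IP replicate 1 (-0.67), without eIF4A2 IP replicate 3 (-0.64) or without DDX6 IP replicate 2 (-0.69), and without eIF4A2 IP replicate 1 or DDX6 IP replicate 2 there were 7 called members in place of 12, while 9.26% and 8.31% of all genes were called.

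Fewer differences passed the test between the eIF4A2 and eIF4A1 IPs. No member was called between them by edgeR (1.06% of all genes were). An unadjusted p below 0.05 was reached by 9 of 40 members and by 3116 of 17474 genes. DESeq2 called 3 members higher with eIF4A2 and 1 lower, beside 541 genes higher and 159 lower. With the replicate number as a block, 8 members were higher with eIF4A2 (ZBTB18, ZBTB34, ZBTB38, ZBTB39, ZBTB40, ZBTB42, ZBTB44 and ZBTB48) and ZBTB12 was lower. Of all 17474 genes, 1245 were higher and 1521 lower in that fit (15.8% in either direction). ZBTB18 was higher by 0.39 ± 0.12 (FDR 0.126), and with the block by 0.39 ± 0.09 (FDR 0.0139). ZBTB42 is in this count only as a description, since its eIF4A1 IP values took part in the choice; it differed by 0.61 ± 0.23. Between the DDX6 and eIF4A1 IPs edgeR called no member (0.0916% of all genes). An unadjusted p below 0.05 was reached by 6 of 40 members and by 2438 of 17474 genes. DESeq2 called 3 members, all lower with DDX6, beside 362 genes higher and 177 lower. With the block, ZBTB2, ZBTB18, ZBTB22 and ZBTB42 were lower with DDX6 and no member was higher. Of all 17474 genes, 668 were lower and 1062 higher (9.9% in either direction). ZBTB18 was lower by 0.36 ± 0.12 (FDR 0.22, with the block 0.0279), and the difference of ZBTB42, again a description, was -0.80 ± 0.23.

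The study asked which 5′UTR sequences the bound mRNAs carry and used purine tetramers from a published binding assay, so the leaders of the members called in the same direction in all 3 IPs are set side by side where 1 exon holds the window. Each line is the stretch of 30 bases of the 5′UTR, 5′ to 3′, with the most bases inside any of 8 purine tetramers (AAAA or AAGA or AGAA or AGAG or GAAA or GAAG or GAGA or GGAA), which may overlap each other and were searched on the mRNA strand only. Capitals mark those tetramers. The enriched members were these.
ZBTB42: GGAAGggcgcttcgtgggcgcctccaggcg
ZBTB18: ggactcAGAGGAAAggacttaatcaggttt
ZBTB2: GAGAGgcAGAGgcggcggcggcggggagga
ZBTB39: GAGAGtctggccgcggccggcggcgccgcc
ZBTB44: GAAGAGcatctgtAGAAGAGGAAGtAAAAg
The depleted members were these.
ZBTB37: GGAAttgccGGAAAGAGcaaacAAAAAAgg
ZBTB33: GAAGggacaaggggatGAAGAAAGAGGAAA
ZBTB3: GAAAAAGAtctctacttcgtggagccgttg
ZBTB11: GAAGAGcgctcgccaaaggcgcagccgttt
In GRCh37 the windows of the enriched members are at ZBTB42 chr14:105267460-105267489 (+ strand), ZBTB18 chr1:244214704-244214733 (+ strand), ZBTB2 chr6:151712621-151712650 (- strand), ZBTB39 chr12:57400271-57400300 (- strand), ZBTB44 chr11:130131769-130131798 (- strand). Those of the depleted members are at ZBTB37 chr1:173838123-173838152 (+ strand), ZBTB33 chrX:119386594-119386623 (+ strand), ZBTB3 chr11:62521447-62521476 (- strand), ZBTB11 chr3:101395859-101395888 (- strand). ZBTB42 had 5 of 30 bases in a tetramer, ZBTB39 5, ZBTB18 8, ZBTB2 9 and ZBTB44 21. Among the depleted members ZBTB37 and ZBTB33 had 18 each, ZBTB3 8 and ZBTB11 6. The windows with the fewest and the most such bases were thus both among the enriched members. At least 1 tetramer was present in the 5′UTR of 40 of 41 members and of 79.5% of 12810 genes. Counted without overlap per 100 bases of 5′UTR, the members' median was 2.01 and that of all genes 1.65. It was 1.35 for the 15 members called higher with eIF4A2 and 4.0 for the 7 called lower, and their median 5′UTR GC content was 71.7% and 59.6%. In the last 50 bases before the start codon the median was 2.0 for both sets, and 2.0 over all genes. These are descriptions of few mRNAs whose 5′UTRs also differ in length. The study reported more purine tetramers in mRNAs bound by eIF4A2 and not by eIF4A1, most of all just before the start codon. The sets of members here were not formed in that way, so their values do not bear on that result.

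The ZBTB mRNAs were long. The median member mRNA had a 5′UTR of 212 nt (147 nt over all genes), a coding sequence of 1770 nt (1440 nt) and a 3′UTR of 2964 nt (1347 nt), and the median 5′UTR GC content of 66.2% lay near that of all genes (67.2%). ZBTB42 had a 5′UTR of 97 nt, GC content of 74.2%, and a protein of 422 residues with 5 zinc finger matches, the shortest protein of the family. ZBTB18 had a 5′UTR of 149 nt with 46.3% GC and a protein of 531 residues. The 2 enriched relatives thus differed widely in 5′UTR GC content, within a range of 44.8 to 82.0% over the members. Per length in RIP total RNA, ZBTB33 was the most abundant member (21.7 ± 1.6 CPM per kb of mRNA, SD, n = 3), ahead of ZBTB2 (18.8 ± 2.5) and ZBTB44 (17.7 ± 1.8), and ZBTB2 overlapped in its libraries with both others while ZBTB33 and ZBTB44 lay further apart than their SDs together. ZBTB42 ranked 36 of 41 (1.02 ± 0.36). The lowest were ZBTB16 (PLZF, 0.177 ± 0.041), ZBTB20 (0.0267 ± 0.0089) and ZBTB32 (0.00497 ± 0.0086).

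Across the sucrose gradient the family leaned to the subpolysomal pool, where mRNAs carry few or no ribosomes. The members' CPM summed to 2846 ± 307 (SD, n = 4) in the control siRNA subpolysomal libraries and 1274 ± 179 in the polysomal libraries (1185 ± 15, n = 3, without replicate 3), beside 1608 ± 25 in input. A CPM is a share of the reads of its own fraction, so these ratios rank mRNAs and do not count molecules. With control siRNA, 30 of 40 tested members were called lower in polysomal than in subpolysomal RNA and 3 higher, where 37% of all genes were lower and 34.8% higher. The median log2 ratio was -0.87 over the members and -0.02 over all genes. Without the 2 polysomal libraries of replicate 3, 32 were lower and 4 higher (38.4% and 33.7% of all genes). With CNOT1 siRNA, 28 were lower and 3 higher (34.7% and 34.1%), and without these libraries 27 were lower and 5 higher (35.9% and 36.0%). The same 27 members were called lower under both siRNAs with all libraries. The share of all genes called lower under both was not computed, so nothing is read from this count.

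ZBTB26 was the most subpolysomal member. With control siRNA it had 143, 150, 73.3 and 89.2 CPM in subpolysomal and 10.9, 10.6, 11.4 and 12.2 CPM in polysomal RNA. The log2 ratio was -3.33 ± 0.22 (FDR 2.53e-12), and with CNOT1 siRNA -2.74 ± 0.22 (FDR 7.79e-11). ZBTB3 had 47.8, 43.0, 43.5 and 41.3 CPM against 7.72, 8.20, 7.49 and 6.28 CPM (-2.56 ± 0.13, FDR 3.11e-14). ZBTB2 had 378, 498, 288 and 406 CPM against 56.6, 65.9, 126 and 67.4 CPM (-2.31 ± 0.24, FDR 4.66e-09), where the 126 is the library that went against its label; without the 2 libraries the ratio was -2.62. With CNOT1 siRNA the ratio of ZBTB2 was -2.37 ± 0.24 (FDR 4.25e-09), and -2.16 without the 2 libraries. ZBTB20, at no more than 1.03 CPM in any of these libraries, had a ratio of -2.19 ± 0.48 (FDR 0.000263), and of -2.14 ± 0.51 with CNOT1 siRNA (FDR 0.000686). It shares exon sequence with other genes on both strands. Without the 2 libraries that went against their labels, the ratios with control and CNOT1 siRNA were -3.33 and -2.76 for ZBTB26 and -2.36 and -2.44 for ZBTB20, and that of ZBTB3 with control siRNA was -2.56, all of them called.

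ZBTB18 was likewise subpolysomal, with 138, 146, 118 and 119 CPM against 31.5, 29.96, 33.7 and 27.3 CPM in control cells, without overlap (-2.09 ± 0.10, FDR 1.85e-14). With CNOT1 siRNA its ratio was -2.07 ± 0.10 (FDR 4.35e-14). ZBTB42 had 5.08, 5.81, 10.5 and 7.45 CPM in subpolysomal and 4.28, 2.86, 3.58 and 2.15 CPM in polysomal control RNA, also without overlap (-1.15 ± 0.24, FDR 0.000154). With CNOT1 siRNA its values were 12.2, 15.1, 15.5 and 19.8 CPM against 4.70, 5.37, 2.42 and 3.60 CPM, a ratio of -1.95 ± 0.24 (FDR 9.73e-08). Without the 2 libraries the ratios were -2.12 and -2.03 for ZBTB18 and -1.19 and -1.77 for ZBTB42, all called.

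Only 3 members were called polysomal in control cells. ZBTB7C had 1.12, 2.03, 1.69 and 1.63 CPM in polysomal and 0.620, 0.954, 0.506 and 1.03 CPM in subpolysomal RNA (1.06 ± 0.27, FDR 0.0011). Its counts were low (9 to 78 per library over the series), and it shares exon sequence with ZBTB7C-AS1 on the other strand. ZBTB10 had 119, 120, 166 and 113 CPM against 85.2, 83.3, 63.6 and 67.6 CPM (0.79 ± 0.13, FDR 1.25e-05), where the 166 is the library that went against its label. Without the 2 libraries the ratios of ZBTB7C, ZBTB10 and ZBTB12 were 1.05, 0.66 and 0.59, all called. ZBTB12 had a ratio of 0.49 ± 0.21 (FDR 0.0365), which lost its call without subpolysomal replicate 1 (0.41) or 2 (0.50) and without polysomal replicate 1 (0.35) or 2 (0.42). With CNOT1 siRNA the polysomal members were ZBTB10 (1.04 ± 0.14, FDR 3.08e-07), ZBTB37 (0.73 ± 0.24, FDR 0.00842) and ZBTB17 (0.66 ± 0.29, FDR 0.0476). The ratio of ZBTB37 was 0.33 and not called without the library labelled CNOT1 siRNA polysomal replicate 3. That of ZBTB17 was not called without CNOT1 siRNA subpolysomal replicate 1 (0.58) or 2 (0.48) or polysomal replicate 1 (0.49) or 2 (0.55). Without the 2 libraries ZBTB10 was at 1.02 and ZBTB17 at 0.84, both called. Of the 8 BTB zinc finger genes with other names 1 was called higher and 3 lower in polysomal RNA of control cells, shares that stand beside 34.8% and 37% of all genes.

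**Figure D3:**
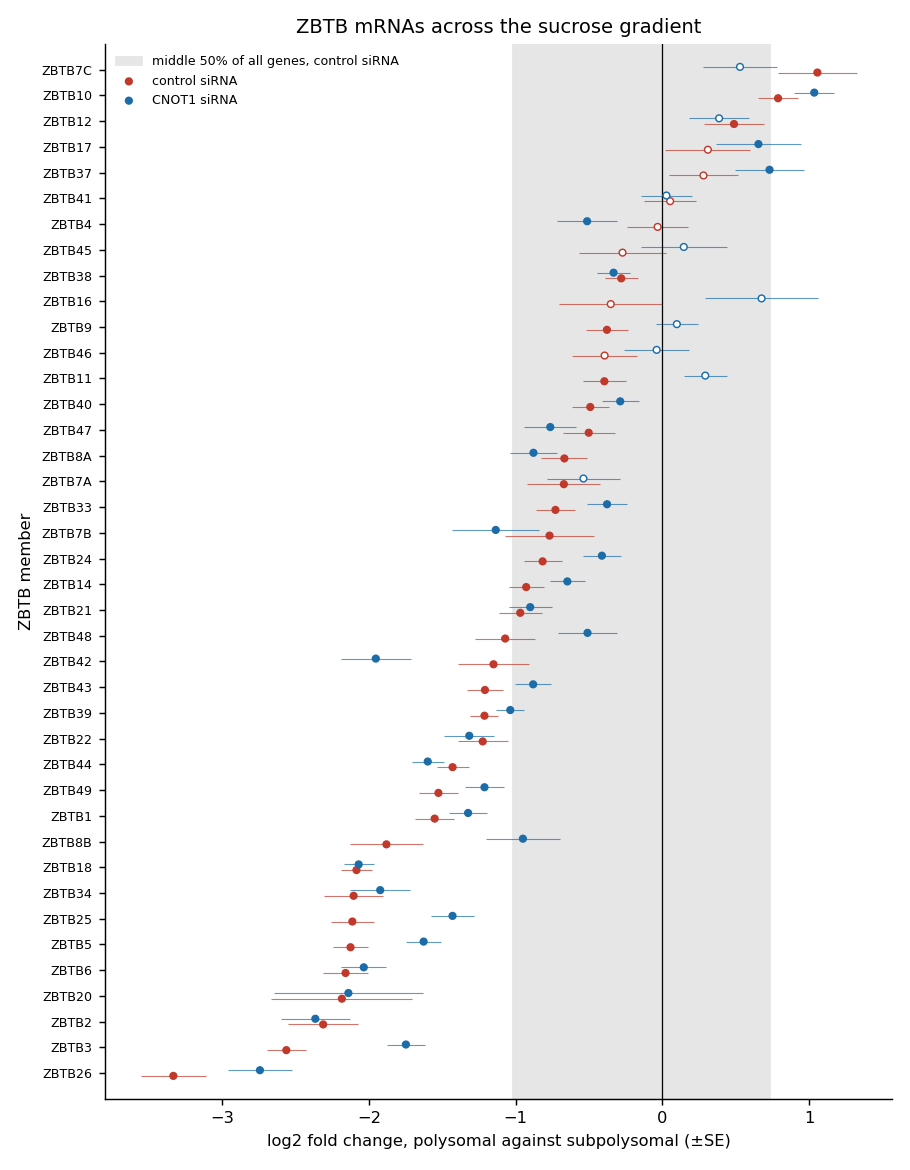
Log2 ratio of polysomal to subpolysomal CPM for each of the 40 tested ZBTB members with control siRNA (red) and CNOT1 siRNA (blue), with bars of 1 SE, filled points for an FDR below 0.05 and a grey band for the middle 50% of all genes with control siRNA. Most members lie left of 0, down to -3.33 for ZBTB26, and ZBTB7C, ZBTB10 and ZBTB12 lie right of it.

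Enrichment with eIF4A2 and position in the gradient were set side by side. Of the 15 members called higher with eIF4A2, 14 were called subpolysomal in control cells, and of the 7 called lower with eIF4A2, 6 were. Over all genes tested in both experiments, 50.3% of those higher with eIF4A2 and 16.2% of those lower were called subpolysomal. The members of both kinds were thus mostly subpolysomal, and the counts are few.

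CNOT1 siRNA changed the level of a minority of members. In input RNA 8 were called higher and 3 lower, where 13.4% of all genes were higher and 15.6% lower. ZBTB7B rose from 4.26, 4.64, 4.57 and 3.53 CPM to 8.02, 8.56, 9.96 and 9.07 CPM (log2 1.07 ± 0.30, FDR 0.0129). ZBTB4, a methyl-CpG binder, rose from 24.1, 24.1, 24.9 and 22.8 CPM to 40.4, 43.2, 52.8 and 44.4 CPM (0.92 ± 0.21, FDR 0.00673). ZBTB42 rose from 3.13, 2.99, 3.70 and 3.16 CPM to 6.81, 6.43, 5.49 and 5.62 CPM (0.91 ± 0.23, FDR 0.00939). ZBTB7A rose from 18.7, 18.5, 20.7 and 17.0 CPM to 30.1, 39.2, 35.7 and 33.5 CPM (0.89 ± 0.25, FDR 0.0131). The groups did not overlap for any of these 4. All 3 members of the ZBTB7 subfamily were called higher, as were ZBTB2, ZBTB22 and ZBTB38.

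ZBTB18, the relative of ZBTB42, did not pass the test: it had 41.2, 42.6, 41.9 and 40.3 CPM with control and 44.8, 50.1, 47.4 and 44.4 CPM with CNOT1 siRNA (0.17 ± 0.10, FDR 0.19). Only with the 8 input libraries fitted on their own was it called (FDR 0.0108). The members that fell were ZBTB37, ZBTB34 and ZBTB5. ZBTB37 fell from 42.0, 45.3, 45.5 and 42.6 CPM to 23.6, 22.3, 26.5 and 24.9 CPM (-0.85 ± 0.23, FDR 0.0119). ZBTB34 fell from 54.1, 49.8, 48.3 and 48.0 CPM to 32.4, 31.0, 33.7 and 28.6 CPM (-0.67 ± 0.20, FDR 0.016). ZBTB5 fell by 0.37 ± 0.12 on the log2 scale (FDR 0.0222), a call that was lost without control siRNA input replicate 1 (-0.32) or 2 (-0.36) and without CNOT1 siRNA input replicate 2 (-0.35), 3 (-0.37) or 4 (-0.36). With the replicate block 8 were higher and 5 lower, ZBTB3 and ZBTB8B being added (14.5% and 17.3% of all genes). Without the 2 polysomal libraries, which enter this fit through its estimate of spread, 11 members were higher and 5 lower (19.6% and 21.1% of all genes). With the input libraries alone 19 were higher and 10 lower, and the shares of all genes also rose, to 30.9% and 30%. Without control siRNA input replicate 1 or 2, or CNOT1 siRNA input replicate 4, there were 7 called members in place of 11. Calls over all genes fell as well, from 2245 higher and 2614 lower of 16776 genes with all libraries. In these fits, in that order, they were 1469 and 1829 of 17106, 1387 and 1780 of 17107, and 1672 and 1875 of 17096.

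In the subpolysomal pool 3 members rose and 10 fell, where 13% of all genes were higher and 19.1% lower. ZBTB42 rose most, by 1.12 ± 0.23 in log2 (FDR 0.000788), and its highest control library (10.5 CPM) was below its lowest CNOT1 siRNA library (12.2 CPM). ZBTB4 rose by 0.75 ± 0.21 (FDR 0.00776), from 29.4, 33.5, 36.0 and 39.7 CPM to 50.3, 54.2, 66.4 and 62.2 CPM. ZBTB7B rose by 0.79 ± 0.29 (FDR 0.0412), which was not called without control siRNA subpolysomal replicate 1 (0.66) or 2 (0.63) or CNOT1 siRNA subpolysomal replicate 3 (0.73) or 4 (0.72). ZBTB18 was at 0.01 ± 0.10 (FDR 0.937). The largest falls were of ZBTB16 (-1.09 ± 0.38, FDR 0.0296), ZBTB8B (-0.94 ± 0.23, FDR 0.00378), ZBTB3 (-0.86 ± 0.12, FDR 2.15e-05) and ZBTB25 (-0.68 ± 0.14, FDR 0.000871).

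ZBTB16 was below 1 CPM in all 8 of these libraries, and its call was lost without control siRNA subpolysomal replicate 3 (-0.96) or 4 (-1.03) or CNOT1 siRNA subpolysomal replicate 1 (-1.04), 2 (-1.12) or 4 (-0.84). ZBTB3 had 47.8, 43.0, 43.5 and 41.3 CPM in the control libraries and 27.8, 22.2, 19.9 and 26.9 CPM in the CNOT1 siRNA libraries, without overlap. ZBTB25 shares exon sequence with ZBTB1 and MTHFD1 on the other strand, and ZBTB16 with unnamed genes there. With the replicate block 3 rose and 12 fell, ZBTB14 and ZBTB26 being added (13.9% and 20.6% of all genes). Without the 2 polysomal libraries 4 members rose and 14 fell in the subpolysomal pool (17.7% and 24.3% of all genes).

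**Figure D4:**
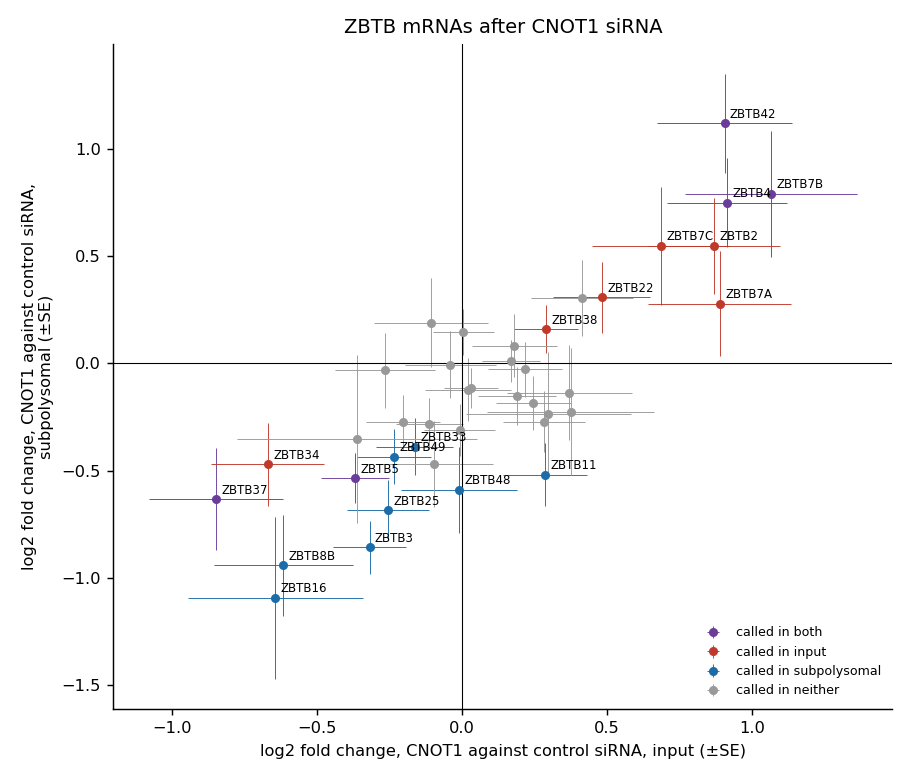
Log2 fold change of 40 ZBTB members after CNOT1 siRNA in input RNA (horizontal) and in subpolysomal RNA (vertical), with bars of 1 SE and colours for the comparison in which a member was called. ZBTB42 (0.91 and 1.12) and ZBTB7B (1.07 and 0.79) lie upper right, and ZBTB37 (-0.85 and -0.63) lower left.

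In polysomal RNA edgeR called no member and 0.0% of all genes with all 4 libraries per group, and DESeq2 called no member. An unadjusted p below 0.05 was reached by 1 member and by 1123 of 16776 genes. Without the 2 libraries that went against their labels, 9 members were higher after CNOT1 siRNA and 2 lower, where 17.1% of all genes were higher and 14.6% lower. Both of these libraries bear on the count: without only the control one 6 members and 16.6% of all genes were called, and without only the CNOT1 siRNA one 1 member and 3.51% of all genes. ZBTB2 then rose by 1.02 ± 0.17 (FDR 8.29e-05), ZBTB7B by 1.01 ± 0.26 (FDR 0.00509), ZBTB7A by 0.94 ± 0.20 (FDR 0.000846) and ZBTB4 by 0.81 ± 0.12 (FDR 3.16e-05), and ZBTB34 (-0.77 ± 0.14, FDR 0.000252) and ZBTB37 (-0.70 ± 0.19, FDR 0.00645) fell. These members were named after their values were seen, since none was called with all libraries. ZBTB42 was at 0.32 ± 0.24 with all libraries (FDR 0.693) and 0.55 ± 0.26 without the 2 (FDR 0.108), and ZBTB18 at 0.03 ± 0.10 (FDR 0.938) and 0.11 ± 0.11 (FDR 0.469).

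The effect of CNOT1 siRNA differed between polysomal and subpolysomal RNA for 3 members, all in the direction of polysomes, where 3.26% of all genes differed in this direction and 2.4% in the other. ZBTB3 differed by 0.82 ± 0.18 (FDR 0.0078), ZBTB11 by 0.69 ± 0.21 (FDR 0.0494) and ZBTB25 by 0.68 ± 0.20 (FDR 0.0475). In each the subpolysomal level fell, and no polysomal change was called with all libraries (-0.04 ± 0.13 for ZBTB3 and 0.17 ± 0.15 for ZBTB11). With the 2 doubted libraries left out, ZBTB11 was called higher in polysomal RNA (0.40 ± 0.12, FDR 0.0166) and ZBTB3 was not called (-0.10 ± 0.14, FDR 0.637). ZBTB42 went the other way without passing the test (-0.80 ± 0.33, FDR 0.159), and ZBTB18 was at 0.01 ± 0.14 (FDR 0.966). Without the 2 libraries 5 members differed (those 3, ZBTB9 and ZBTB24), and none in the other direction (9.99% and 7.51% of all genes). With all libraries but 1, ZBTB3 was called in all 16 fits. The call of ZBTB11 was kept only without control siRNA subpolysomal replicate 4 or CNOT1 siRNA subpolysomal replicate 1 or control siRNA polysomal replicate 3 (range 0.57 to 0.92), and that of ZBTB25 was lost in 12 of 16 fits (range 0.58 to 0.83). ZBTB11 shares exon sequence with ZBTB11-AS1 on the other strand.

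Across the 40 members, a higher log2 enrichment in an IP went with a higher log2 change in subpolysomal RNA after CNOT1 siRNA, although 3 members alone were called as rising there. Pearson's r was 0.61 for eIF4A1 (0.52 without ZBTB42, 0.20 over 16272 genes), 0.57 for eIF4A2 (0.46 without ZBTB42, 0.07 over all genes) and 0.63 for DDX6 (0.55 without ZBTB42, 0.24 over all genes). With the change in input RNA, r was 0.47, 0.41 and 0.49 in that order, and 0.12, 0.07 and 0.11 over all genes. The 3 IPs share their total RNA libraries and the points are genes measured in the same libraries, so the coefficients are descriptions.

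Without a replicate block, TNRC6A/B siRNA moved no member past the test. Of 39 tested members (ZBTB20 also fell below the filter here) edgeR called none, as it called 0.0% of all genes. DESeq2 called none, beside 6 genes higher and 2 lower. An unadjusted p below 0.05 was reached by 2 members and by 289 of 14064 genes. ZBTB42 had 2.77 and 0.750 CPM with control siRNA and 2.23 and 1.02 CPM with TNRC6A/B siRNA (log2 -0.13 ± 0.73, FDR 1.0), and the groups overlapped. ZBTB18 had 24.97 and 38.2 CPM against 44.03 and 52.8 CPM, without overlap (0.62 ± 0.30, FDR 1.0). Named after their values were seen, the 3 largest differences were those of ZBTB47, with 16.8 and 9.12 CPM against 47.1 and 22.9 CPM, ZBTB4, with 29.4 and 21.2 CPM against 80.3 and 49.0 CPM, and ZBTB7A, with 21.8 and 8.25 CPM against 47.8 and 16.1 CPM. The first 2 did not overlap between the groups, and ZBTB7A did. The siRNA targets themselves were not called in this fit without the block either. A fit with the replicate number as a block called ZBTB4, ZBTB7A, ZBTB18 and ZBTB47 higher and no member lower. Of 14064 genes, it called 520 higher and 243 lower.

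Over all 12 groups, ZBTB42 had company in a part of the family. Its group means (log2 of the mean CPM, each less the mean of the groups of its experiment) were compared with those of the 38 other members tested in all 3 experiments. The most alike were ZBTB22 (Pearson's r = 0.975 over 12 groups), ZBTB44 (0.876) and ZBTB2 (0.872), and the least alike ZBTB17 (-0.761), ZBTB37 (-0.752) and ZBTB41 (-0.697). In all, 28 of the 38 had r above 0 and 17 above 0.5, and the median was 0.415. The same r was not computed over all genes, so whether the family was more like ZBTB42 than other genes was not tested. The polysomal group means include the replicate 3 libraries that went against their labels. The 12 groups are not independent points, since those of 1 experiment share cells and controls, and the pattern of ZBTB42 was the reason for the choice of the family, so these values are given as descriptions.

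**Figure D5:**
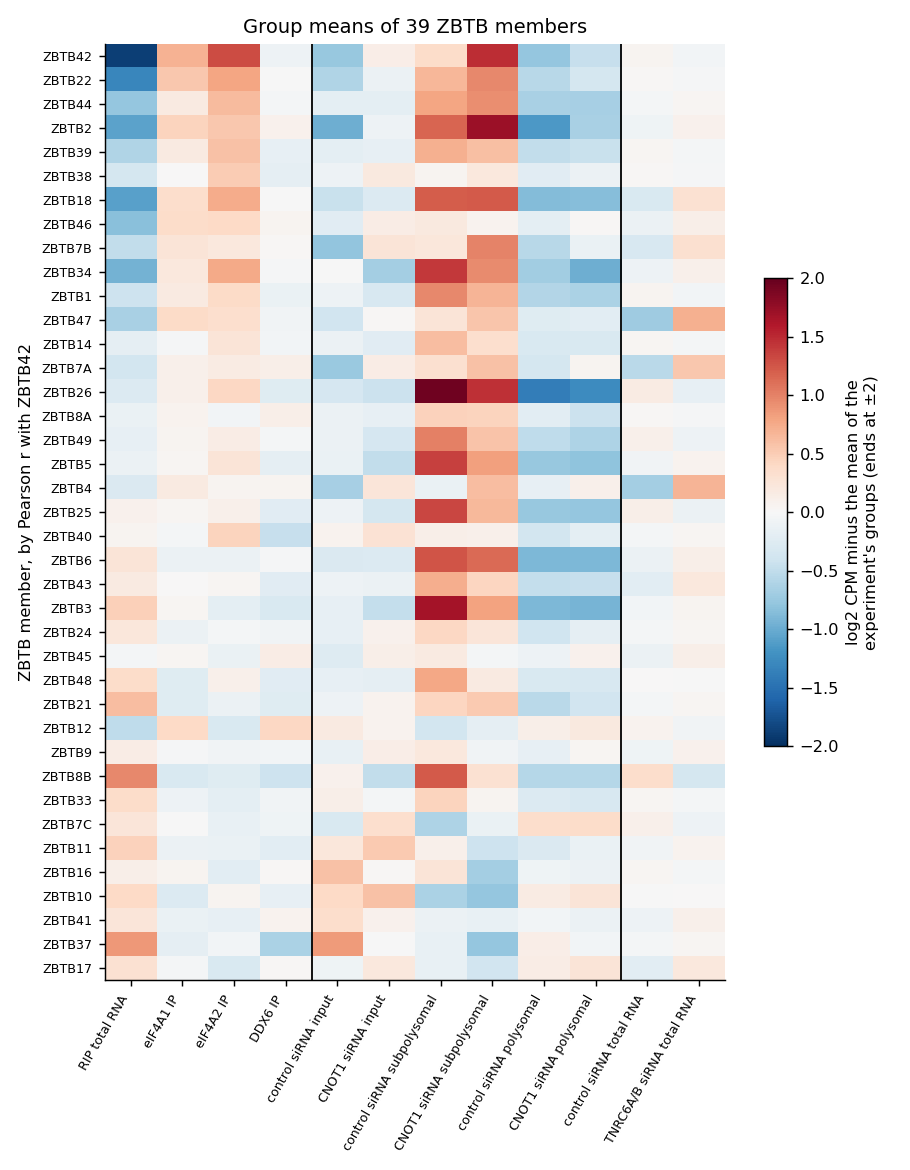
Group means of 39 ZBTB members as log2 CPM less the mean of the groups of the same experiment (blue lower, red higher, colours end at 2 in either direction), with the groups in columns, black lines between the 3 experiments and the members ordered by Pearson's r with ZBTB42. The upper rows, led by ZBTB22 (0.975), share low RIP total RNA and high subpolysomal values with ZBTB42, and the bottom row is ZBTB17 (-0.761).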

How the data were processed

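RIP-Seq, sucrose gradient and siRNA libraries were made by the authors with a stranded TruSeq mRNA kit, aligned to hg19 with TopHat2 and counted per gene with htseq-count; the strand option of the counting was not given in the sources used here. The deposited counts are whole, unnormalized reads per gene symbol, in 1 file per library (15.4 to 46.0 M counts), and were used as deposited. A merged table of the authors' own tests of each IP was not used. Groups came from the labels. The label of total RNA replicate 3 calls it replicate 2 in its description, and the number in its title was used. Members, role groups, lists and tests were chosen with earlier results of these data known.

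Counts were analysed with edgeR 4.0.16 and limma 3.58.1 in R 4.3.3, with 1 fit per experiment (12, 24 and 4 libraries), filterByExpr, TMM factors and quasi-likelihood F-tests, all two-sided. This left 17474, 16776 and 14064 genes. Members were called where the FDR (Benjamini-Hochberg, across every gene fitted) was below 0.05, and SE is that of the log2 fold change. Nothing shows that replicates came from separate cultures, so p-values measure the spread between these libraries, and intervals from counts would cover counting error only. No 2 libraries held identical counts. No mock IP was used here. In each comparison ZBTB42 and ZBTB18 were named, with up to 4 called members of the largest rise and 4 of the largest fall, the 3 most and least abundant per length and the 3 most and least like ZBTB42.

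Same-numbered RIP-Seq libraries deviated together from their group means (correlations 0.138 to 0.628, all above 0.1), and most other-numbered pairs were below 0. Total RNA replicate 1, however, had 0.19 with eIF4A1 IP replicate 2 (0.216 with replicate 1) and 0.148 with DDX6 IP replicate 2 (0.165 with replicate 1). The numbers thus pair these samples by the data, less clearly for total RNA with the IPs. Same-numbered control and CNOT1 siRNA libraries deviated together in input (0.134 to 0.235) and in subpolysomal RNA (0.469 to 0.629), not across polysomal groups (-0.519 to 0.08). The -0.519 is that of replicate 3, whose libraries went against their labels and also enter the group means. In subpolysomal RNA replicates 1 and 2 also correlated with each other (0.364 and 0.425), as did 3 and 4 (0.362 and 0.254). The remaining pairs were at -0.558 to -0.361. Replicates 1 and 2 held 24 to 27.3 M counts there, and 3 and 4 held 15.9 to 17.7 M. The block is given beside those counts. Alternatives were DESeq2 1.42.0, its size factors in edgeR (RLE), no filter, the replicate block, the compared libraries alone, each library left out, and both polysomal libraries of replicate 3 left out. For correlations across groups 0.1 CPM was added before the log. The scripts were tested on simulated data. mRNA features and positions came from GENCODE release 44 on GRCh37, the coding transcript marked as the representative one being taken for each gene. Of 41 members, 18 share exon sequence with another gene, 16 of them with a gene on the other strand, and their counts may hold reads of it. A list of partner genes of BTB domains is not reported here.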

Additional observations from a re-analysis of the deposited data

Results flagged for a closer look

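In 8 of 126 groups of 4 gradient libraries examined, 1 library lay far from the other 3 by Dixon's test, the gap to the nearest value over the whole range being above the 95% critical value; chance flags about 1 in 20 groups. The library labelled control siRNA polysomal replicate 3 stood apart for CNOT1 (28.3 CPM, where the others had 470 to 501), ZBTB2 (126 CPM, others 56.6 to 67.4), ZBTB4 (57.5 CPM, others 25.1 to 26.8) and ZBTB10 (166 CPM, others 113 to 120). CNOT1 siRNA polysomal replicate 3, as labelled, stood apart for CNOT1 (631 CPM, others 24.01 to 31.6), ZBTB2 (61.7 CPM, others 122 to 131) and ZBTB34 (41.8 CPM, others 19.2 to 21.5). For CNOT1, ZBTB2 and ZBTB34 the value in each of these 2 libraries lies with, or nearer to, those of the other siRNA's polysomal group, as does ZBTB4 in the control one. The lowest ZBTB4 value of the CNOT1 siRNA polysomal group (26.7 CPM) also lies within the 25.1 to 26.8 CPM of the other control libraries. ZBTB20 was at 0.129 CPM in CNOT1 siRNA input replicate 2, where the others had 0.362 to 0.393 CPM.

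The effect of CNOT1 siRNA differed between polysomal and subpolysomal RNA, in log2 and by a test of the interaction, for ZBTB3 (0.82), ZBTB11 (0.69) and ZBTB25 (0.68). With each library left out in turn, ZBTB3 kept its call in all 16 fits, whereas ZBTB11 lost it in 13 and ZBTB25 in 12.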

How the results depend on the processing

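Of 166 alternative counts of called members, 132 were within 1.5 times the main count. Between the eIF4A2 and eIF4A1 IPs (0 called), DESeq2 called 4, no filter 1 and the replicate block 9; between the DDX6 and eIF4A1 IPs (0), they called 3, 1 and 4. For CNOT1 siRNA in input (11), the compared libraries alone gave 29; in polysomal RNA (0), leaving out both polysomal libraries of replicate 3 gave 11. For the difference in CNOT1 siRNA effect (3), RLE factors gave 1, no filter 0, the compared libraries alone 0, and leaving out both polysomal libraries 5. For TNRC6A/B siRNA (0), no filter gave 1 and the replicate block 4 (ZBTB4, ZBTB7A, ZBTB18 and ZBTB47, all higher, with 520 genes higher and 243 lower in all). Its 2 same-numbered pairs correlate at 0.821. With 2 libraries per group the other pairs are then fixed at -0.821, so this is a single value. In the gradient the replicate block changed no count by over 1.5 times and added ZBTB11 to the polysomal ratio with CNOT1 siRNA. Leaving out each library gave 19 to 22 for the eIF4A1 IP, 19 to 22 for eIF4A2, 15 to 19 for DDX6, 0 and 0 for eIF4A2 and for DDX6 against eIF4A1, 7 to 11 for eIF4A2 against DDX6, 27 to 34 and 28 to 30 for polysomal against subpolysomal with control and CNOT1 siRNA, 7 to 10 for CNOT1 siRNA in input, 9 to 16 in subpolysomal, 0 to 6 in polysomal, 1 to 5 for their difference and 0 for TNRC6A/B siRNA. Among 990 alternative values of named members no called direction turned, 67 lost their call and 10 gained one. Where no cause is given above, the cause was not tested. Summed levels with RLE factors and median features with the longest coding transcript (17 values) moved by less than their spread. ZBTB42 had 12 to 1627 counts per library.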
